A study of Mus musculus with 8 samples.

Results

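Regulatory B cells are B cells that restrain immune responses, and no single gene defines them. They were described here through 9 genes that are used as their markers or carry out their functions: Il10, Tgfb1, Entpd1, Nt5e, Tigit, Havcr1, Cd9, Cd5 and Cd24a. The genes were taken by symbol from a table of normalized counts with 23302 rows. All 9 had a row, and all 9 were among the 13011 tested genes, those with a mean of at least 10 normalized counts over the 8 libraries. The libraries are bulk RNA of splenic B cells from C57BL/6 mice, naive per the study's design text, in 4 groups of 2: WT and, lacking Ebi3 in B cells, the genotype labelled B-EBi3- (here EBi3KO), each with and without a tumor. The study's title places the tumors in the pancreas. A tumor status written as WT was read as nontumor, which the labels do not spell out. How the B cell deletion was made, the tumor model, the ages of the mice and whether libraries of a group come from separate mice are not stated in the labels, so p-values measure the spread between these libraries, which may be technical.

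Regulatory B cells act largely through the cytokines IL-10 and TGF-β1, and IL-35, of which Ebi3 is a subunit, is a further suppressive cytokine made by some of them. The ectonucleotidases CD39 (Entpd1) and CD73 (Nt5e) work in sequence, turning extracellular ATP to AMP and AMP to adenosine, which dampens lymphocytes. TIGIT is an inhibitory receptor for nectin family ligands, TIM-1 (Havcr1) is a receptor for phosphatidylserine, CD9 is a tetraspanin, and CD5 and CD24 are surface proteins by which IL-10-competent murine B cells are often gated.

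Depth ranged from 21291892 to 28297319 reads per library, and reads per gene could be recovered from the normalized counts. The targeted gene Ebi3 was at 9.96 ± 1.44 (mean ± SD, n = 2) normalized counts in WT nontumor against 182.2 ± 26.4 in WT tumor libraries, and 12.1 ± 0.931 in EBi3KO nontumor against 9.85 ± 1.63 in EBi3KO tumor libraries. It was thus as low in WT without a tumor as in either EBi3KO group, and it separated the genotypes in tumor mice only (log2 difference -4.08, SE 0.303, limma adjusted p = 2.43e-05). The WT tumor libraries stand apart from the other 6. Their titles alone carry another prefix, their Xist level was higher than in WT nontumor by 11.63 on the log2 scale and their Eif2s3y level fell by 11.3, the pattern of female mice against male. Sex, title series and tumor cannot be told apart in the tumor effect in WT, nor sex and title series from genotype in the comparison of tumor groups. The EBi3KO tumor libraries differed least from each other of the 4 pairs, with a mean chi-square of 2.01 per gene against 13.1 to 20.3 in the other pairs, so calls that were lost with the pair averaged as 1 sample are named beside the result.

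The 5 B cell markers used (Ms4a1, Cd79a, Cd79b, Pax5 and Cd22) summed to between 170383 and 190958 normalized counts in every library. Single markers moved within that sum. With the tumor in WT, Cd79a and Cd79b fell by 0.52 and 0.54 on the log2 scale. Pax5 and Cd22 rose by 0.48 and 1.43, and Ms4a1 did not pass the test. As a share of reads the sum was 0.64% to 0.643% in WT nontumor and 0.797% to 0.823% in WT tumor libraries. Markers of other spleen cells were present too and moved with the groups. The 13 macrophage markers summed to between 190989 and 214755 normalized counts in WT nontumor libraries, 15020 to 17274 in WT tumor, 158462 to 206378 in EBi3KO nontumor and 90978 to 91448 in EBi3KO tumor libraries. All 13 fell with the tumor in both genotypes (12 in EBi3KO with its tumor pair averaged) and all 13 were higher in EBi3KO than in WT tumor libraries. The 7 plasma cell markers, among them the joining chain gene Igj, summed to 42260 to 45019, 9833 to 11569, 31814 to 33380 and 56860 to 56868 in the same order of groups. Igj alone averaged 42590 in EBi3KO tumor libraries, most of that sum. Mzb1, the next most abundant, averaged 13620, 4396, 12000 and 9958, so it was not highest in EBi3KO tumor libraries. The only marker at 0 in both libraries of a group was the stromal gene Col1a1, in WT tumor libraries. In bulk RNA, fewer cells of a type and less RNA per cell cannot be told apart.

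**Figure D1:**
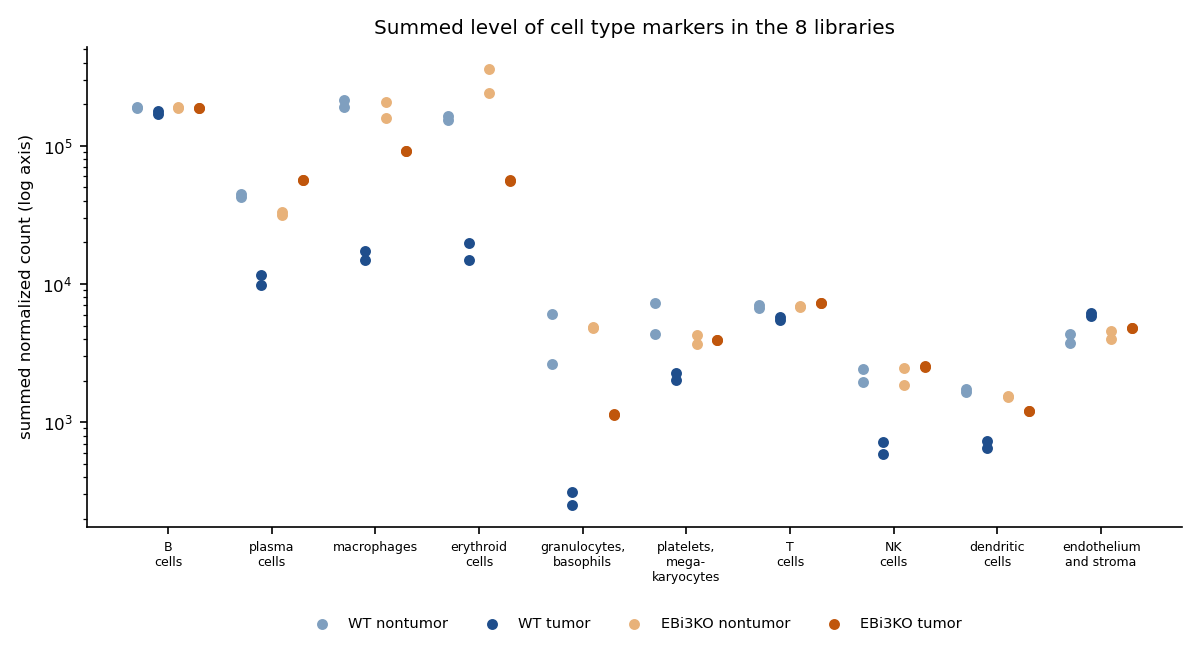
Summed normalized counts (log axis) of marker lists for 10 cell types, with 1 point per library and 2 libraries per group. Sums of B cell markers lie close together in all 4 groups. Those of macrophage, erythroid, granulocyte, NK and dendritic cell markers are lowest in the WT tumor libraries. The plasma cell sum is highest in the EBi3KO tumor libraries, where most of it is Igj.

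Promoter windows are shown for the pair of genes that fell furthest with the tumor in WT apart from Il10, Cd9 and Entpd1, and for the pair that rose in both genotypes, Nt5e and Tigit. Each window is the 250 bases before the RefSeq start (GRCm38.p6, which shares coordinates with mm10), 5′ to 3′ on the gene's strand, with matches to the searched motifs in capitals. For Cd9 it is chr6:125494761-125495010 on the minus strand, for Entpd1, at the first of its 2 listed starts, chr19:40612116-40612365 on the plus strand, for Nt5e chr9:88327359-88327608 on the plus strand and for Tigit chr16:43664185-43664434 on the minus strand.
Cd9: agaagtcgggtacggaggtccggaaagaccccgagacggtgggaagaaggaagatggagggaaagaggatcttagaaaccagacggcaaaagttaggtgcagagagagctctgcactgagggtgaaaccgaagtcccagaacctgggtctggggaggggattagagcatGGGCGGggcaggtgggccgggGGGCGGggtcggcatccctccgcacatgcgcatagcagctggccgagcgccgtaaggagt
Entpd1: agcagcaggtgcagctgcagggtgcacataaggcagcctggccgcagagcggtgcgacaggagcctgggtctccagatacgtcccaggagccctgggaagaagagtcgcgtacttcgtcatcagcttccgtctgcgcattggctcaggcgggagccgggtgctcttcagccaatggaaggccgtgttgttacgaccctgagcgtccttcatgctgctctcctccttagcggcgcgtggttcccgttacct
Nt5e: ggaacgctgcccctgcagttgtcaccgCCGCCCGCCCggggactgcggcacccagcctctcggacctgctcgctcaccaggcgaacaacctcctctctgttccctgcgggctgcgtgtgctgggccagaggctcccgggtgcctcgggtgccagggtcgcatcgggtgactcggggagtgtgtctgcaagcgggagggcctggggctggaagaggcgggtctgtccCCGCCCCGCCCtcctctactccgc
Tigit: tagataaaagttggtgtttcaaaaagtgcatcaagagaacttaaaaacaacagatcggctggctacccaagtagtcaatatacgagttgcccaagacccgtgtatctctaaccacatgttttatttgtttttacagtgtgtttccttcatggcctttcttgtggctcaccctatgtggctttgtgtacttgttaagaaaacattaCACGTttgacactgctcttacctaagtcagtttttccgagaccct
The capitals mark the GC box GGGCGG in Cd9 (2 matches) and Nt5e (4 matches, overlapping ones counted) and the hypoxia response element core ACGTG in Tigit (1 match). The bases after the Tigit start were not found in its GENCODE transcripts, unlike those of the other windows. The Nt5e window lies wholly inside its GENCODE gene, which starts at 88327197, so it is upstream of the RefSeq start only. The Entpd1 window shown held none of the motifs searched, while the window of its second listed start, at 47.2% G and C, held 2 matches to the PU.1 core. Over 32851 RefSeq windows of the same length and on both strands, GGGCGG was found in 32.7% and ACGTG in 16.6%. The STAT motif TTCNNNGAA (7.02% of all windows), the AP-1 motif TGANTCA (6.75%), the CRE motif TGACGTCA (1.55%) and the PU.1 core GAGGAA (23.3%) were absent from these 4 windows. The Cd9, first Entpd1 and Nt5e windows were rich in G and C (61.6%, 62.4% and 72%) with 16, 18 and 21 CpG dinucleotides, and the Tigit window had 40% and 5, against medians of 52.4% and 6 over all windows. So the pair that rose did not share a base composition, and the pair that fell did not share a motif.

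In tumor-bearing WT mice, 5 of the 9 genes were lower, 2 were higher and 2 did not pass the test (limma, Benjamini-Hochberg adjusted p below 0.05). Il10, Tgfb1, Cd9, Cd24a and Entpd1 fell, and Tigit and Nt5e rose. Of all tested genes, 79.8% passed in this comparison, 39.6% higher and 40.1% lower, so the number of the 9 that passed is near the background. Their median log2 difference was -0.56 against 0.01 for all tested genes. In tumor-bearing EBi3KO mice 3 rose (Il10, Tigit and Nt5e), 2 fell (Cd24a and Entpd1) and 4 did not pass, against a background of 32.6% (14.1% higher and 18.5% lower) and with a median of -0.18 against -0.01. With the EBi3KO tumor pair averaged, 2 of the 9 passed, Cd24a and Entpd1.

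Without a tumor no gene of the 9 passed between genotypes, and none of the 13011 tested genes did with limma (0%, with 0% higher and 0% lower). At an unadjusted p under 0.05 there were 1049 genes, and at the adjusted threshold 0 with edgeR and 21 with DESeq2 on the recovered reads. In tumor-bearing mice Il10, Tgfb1, Cd9 and Entpd1 were higher in EBi3KO than in WT, and the other 5 did not pass. The background was 60.5% of tested genes (31.9% higher and 28.6% lower). The same 4 genes passed the interaction (EBi3KO tumor effect less the WT tumor effect), with a background of 52.9% (27.5% higher and 25.4% lower). These comparisons share libraries, so their values for a gene are given side by side and are not independent of each other.

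**Figure D2:**
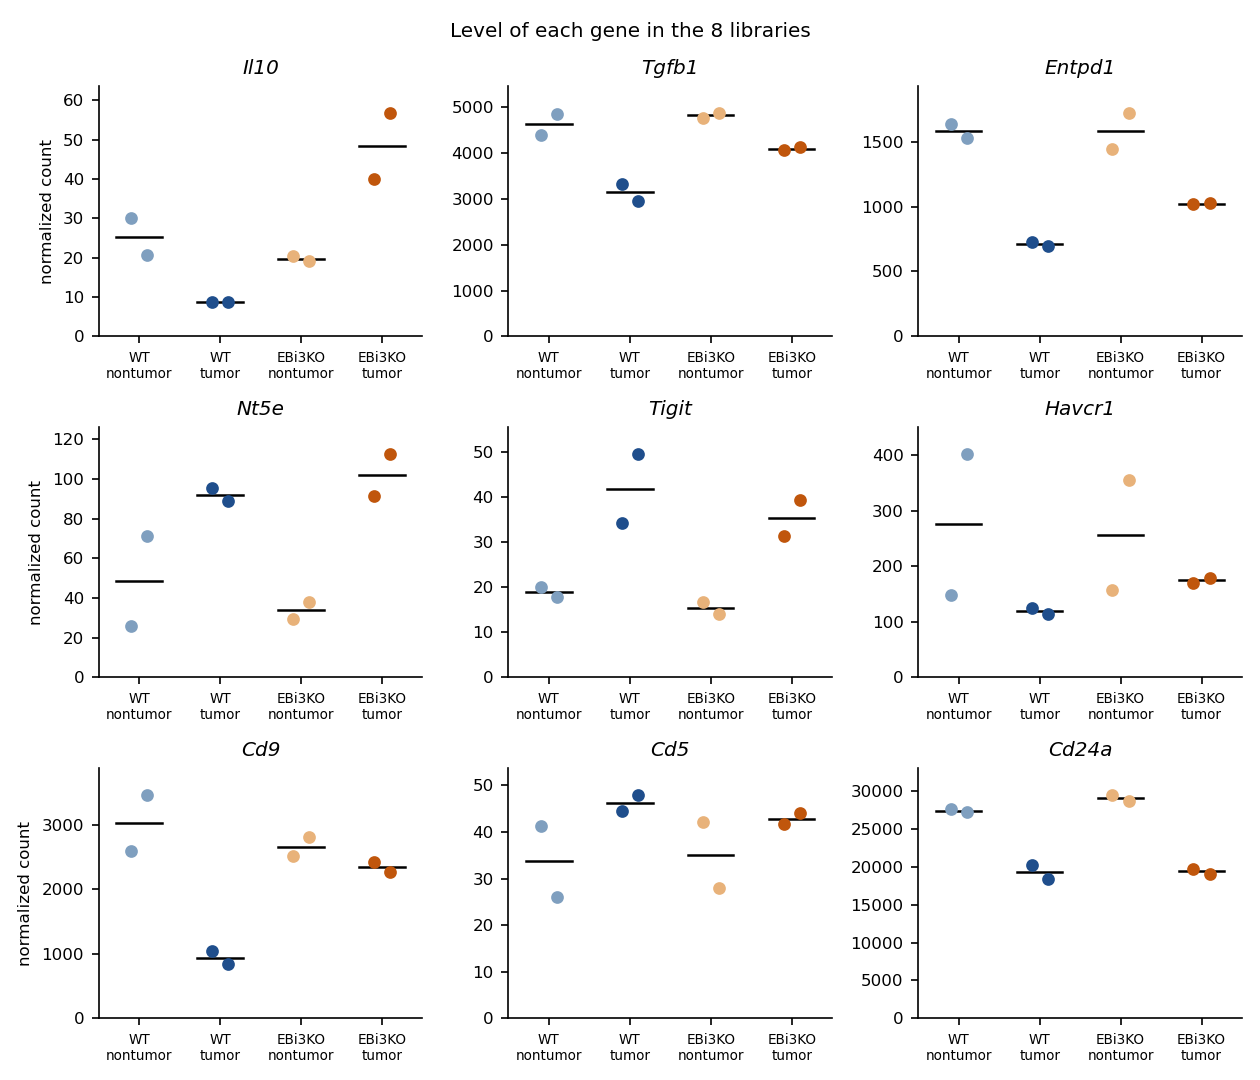
Normalized count of each of the 9 genes (vertical axes, starting at 0) in the 8 libraries, with 1 point per library and a bar at the mean of the 2 libraries of a group. Il10 is lowest in WT tumor and highest in EBi3KO tumor libraries, and Havcr1 and Cd5 are split between the libraries of each nontumor pair.

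Il10 (chr1:131019845-131024974, plus strand of GRCm38, which is mm10, in the GENCODE M21 annotation) encodes the suppressive cytokine most closely tied to regulatory B cells. Its level was 30.2 and 20.6 normalized counts in WT nontumor against 8.73 and 8.65 in WT tumor libraries, and 20.4 and 19.1 in EBi3KO nontumor against 40.01 and 56.8 in EBi3KO tumor libraries. These levels rest on 27, 15, 11, 11, 16, 15, 46 and 62 reads in that order. Both WT tumor libraries lay below every other library and both EBi3KO tumor libraries above. With 2 libraries per group, lack of overlap, here and for the genes below, is a description only. The Il10 values of the nontumor genotypes did not overlap either (limma adjusted p = 0.721).

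The tumor effect on Il10 was -1.42 on the log2 scale (SE 0.33, limma adjusted p = 0.00346) in WT and 1.23 (SE 0.33, adjusted p = 0.0253) in EBi3KO. Their difference, the interaction, was 2.65 (SE 0.467, adjusted p = 0.00201), and in tumor mice EBi3KO exceeded WT by 2.33 (SE 0.33, adjusted p = 0.000435). Without a tumor the genotypes differed by -0.32, with a 95% interval from -1.07 to 0.43. The rise in EBi3KO did not pass when the tumor pair was averaged (limma adjusted p = 0.126), nor without EBi3KO nontumor replicate 2 (0.103), EBi3KO tumor replicate 1 (0.0898) or EBi3KO tumor replicate 2 (0.184), nor with DESeq2 (0.0729). The fall in WT, the genotype difference in tumor mice and the interaction passed in every alternative run that tested Il10.

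The plasma cell markers moved in part with Il10. With the tumor in WT 4 of 7 fell and 1, Sdc1, rose (log2 difference 0.68). In EBi3KO 6 rose and 1, Mzb1, fell (-0.27), while 1 rose with the tumor pair averaged. Igj averaged 26690 ± 3052 normalized counts in WT nontumor against 3522 ± 533 in WT tumor libraries, and 17430 ± 1258 in EBi3KO nontumor against 42590 ± 203 in EBi3KO tumor libraries (SD, n = 2). Tnfrsf17, the plasma cell receptor BCMA, averaged 28.6 ± 5.46, 3.96 ± 1.14, 13.4 ± 0.87 and 42.9 ± 4.11. Macrophage, T cell and NK cell markers also separated the tumor groups, with 13 of 13, 10 of 11 and 7 of 7 higher in EBi3KO tumor than WT tumor libraries. The background there was 31.9% of tested genes higher. The part of plasma cells, macrophages, T cells and NK cells in the Il10 values was not tested.

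Of 15 other genes of the IL-10 pathway (receptor, kinases and transcription factors), 9 rose and 3 fell with the tumor in WT, and 7 rose and 1 fell in EBi3KO. Of all tested genes 79.8% passed in WT and 32.6% in EBi3KO, the background for every list count of tumor effects given here. With the length and GC trend removed the WT counts were 6 and 5, and with the EBi3KO tumor pair averaged 1 of 15, Bhlhe40, rose and none fell (Maf adjusted p = 0.0572). Maf, a transcription factor that promotes Il10 transcription, fell in both genotypes (log2 difference -2.10, SE 0.112, limma adjusted p = 9.96e-07 in WT and -0.62, adjusted p = 0.00604 in EBi3KO). The ligand-binding receptor chain Il10ra rose by 1.2 in WT (SE 0.106, adjusted p = 1.15e-05) and by 0.37 in EBi3KO (adjusted p = 0.0314), and the IL-21 receptor Il21r rose by 1.03 in WT. In EBi3KO Maf, Bhlhe40, Socs3 and Irf4 had the smallest p, and the rises were those of Bhlhe40 (0.70), Socs3 (0.80) and Irf4 (0.84). Socs3, a feedback inhibitor of STAT3 signalling, averaged 363 ± 27.8, 299 ± 45, 298 ± 41.3 and 516 ± 22.5 normalized counts in WT nontumor, WT tumor, EBi3KO nontumor and EBi3KO tumor libraries (SD, n = 2), so it followed the EBi3KO side of the Il10 pattern, with a WT change that did not pass (-0.29, adjusted p = 0.0947).

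Tgfb1 (chr7:25687002-25705077, plus strand) encodes TGF-β1, a suppressive cytokine secreted in latent form. It was at 4400.1 and 4856 normalized counts in WT nontumor against 3333 and 2964 in WT tumor libraries, and 4768 and 4881 in EBi3KO nontumor against 4063 and 4131 in EBi3KO tumor libraries. The tumor groups lay below the nontumor groups without overlap in both genotypes, and the WT tumor pair was lowest. With a tumor the log2 difference was -0.56 (SE 0.081, limma adjusted p = 0.000222) in WT and -0.24 (SE 0.081, adjusted p = 0.0543) in EBi3KO, which did not pass. EBi3KO exceeded WT by 0.38 in tumor mice (SE 0.081, adjusted p = 0.00361) and the interaction was 0.32 (SE 0.115, adjusted p = 0.0433).

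These are small differences for a gene whose WT fall was no longer called under 2 settings. It was -0.14 (limma adjusted p = 0.129) with the length and GC trend removed and -0.11 (adjusted p = 0.204) with libraries scaled to their total reads. With the length and GC trend removed the genotype difference in tumor mice was 0.004 (adjusted p = 0.97) and the interaction 0.008 (adjusted p = 0.956). The interaction was called in 9 of 21 alternatives.

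Of 15 tested genes of TGF-β activation and signalling (18 listed), 11 rose and none fell with the tumor in WT, and 4 rose and none fell in EBi3KO. With the length and GC trend removed 8 rose and 3 fell in WT. With the EBi3KO tumor pair averaged 2 rose, Skil and Smad7. The transcriptional corepressor Skil rose by 1.54 (SE 0.076, limma adjusted p = 7.41e-07) in WT and 0.65 (adjusted p = 0.000813) in EBi3KO, from means of 1443 and 1376 normalized counts. The inhibitory Smad7 rose by 0.85 and 0.55 (adjusted p = 1.14e-05 and 0.00168). The integrin subunit Itgav, which takes part in activation of latent TGF-β, rose by 0.88 in WT, and the ligand Tgfb3 rose by 0.77 in EBi3KO, from 42.7 ± 2.81 to 73.9 ± 13.5 normalized counts (SD, n = 2). The Tgfb3 call was lost with the tumor pair averaged (limma adjusted p = 0.128) and with DESeq2 (0.11).

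Entpd1 (chr19:40612366-40741602, plus strand) encodes CD39, the first of the pair of enzymes that make adenosine. It was at 1635 and 1532 normalized counts in WT nontumor against 725 and 699 in WT tumor libraries, and 1448 and 1723 in EBi3KO nontumor against 1017 and 1025 in EBi3KO tumor libraries. Both tumor groups lay below both nontumor groups, WT further than EBi3KO. The log2 difference with the tumor was -1.15 (SE 0.095, limma adjusted p = 7.93e-06) in WT and -0.63 (SE 0.095, adjusted p = 0.00277) in EBi3KO, falls of 2.22-fold and 1.55-fold. In tumor mice EBi3KO exceeded WT by 0.52 (SE 0.095, adjusted p = 0.00166), and the interaction was 0.52 (SE 0.135, adjusted p = 0.0113).

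The falls in both genotypes and the difference between tumor groups passed in every alternative run. The interaction did not pass when libraries were scaled to total reads (0.25, limma adjusted p = 0.113). Without a tumor the genotypes differed by -0.003, with a 95% interval from -0.22 to 0.21. Macrophages and platelets also express Entpd1 in many settings. All 13 macrophage markers fell with the tumor in both genotypes, and of 7 platelet and megakaryocyte markers 6 fell in WT and none passed in EBi3KO. Their part in the Entpd1 values was not tested.

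Nt5e (chr9:88327197-88372092, plus strand) encodes CD73, the second enzyme. It was at 25.7 and 71.3 normalized counts in WT nontumor against 95.3 and 88.9 in WT tumor libraries, and 29.4 and 38.2 in EBi3KO nontumor against 91.3 and 113 in EBi3KO tumor libraries. The tumor libraries of both genotypes lay above all nontumor libraries, but the WT nontumor pair differed 2.77-fold. The tumor effect was 1.08 (SE 0.407, limma adjusted p = 0.0348) in WT and 1.57 (SE 0.407, adjusted p = 0.0227) in EBi3KO. The interaction was 0.49 with a 95% interval from -0.82 to 1.80, which does not show that the rises were alike.

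Both Nt5e calls are fragile. The WT call was lost in 7 of 19 alternatives, for example without WT nontumor replicate 1 (log2 difference 0.36, limma adjusted p = 0.227). The EBi3KO call was lost in 7 of 18, for example without EBi3KO tumor replicate 2 (1.42, adjusted p = 0.132) and with the tumor pair averaged (1.58, adjusted p = 0.115). With the length and GC trend removed the WT value was 0.531 (limma adjusted p = 0.297). The 2 enzymes had tumor effects of opposite sign in both genotypes, but the Nt5e side rests on these fragile calls. Per kilobase of transcript, Entpd1 averaged 963 and Nt5e 12.2 normalized counts in WT nontumor libraries, and 433 and 23.1 in WT tumor libraries.

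Of 11 tested genes of ATP and adenosine handling (12 listed), 1 rose and 6 fell with the tumor in WT, and none rose and 4 fell in EBi3KO. Scaled to total reads the WT counts were 5 and 5, and with the EBi3KO tumor pair averaged 2 fell, Slc29a1 and Adk. Slc29a1, the equilibrative nucleoside transporter that carries adenosine, fell by 2.15 (SE 0.113, limma adjusted p = 9.66e-07) in WT and 1.29 (adjusted p = 0.000176) in EBi3KO. It went from 1759 ± 250 to 395 ± 41.2 and from 1691 ± 48.3 to 689.5 ± 0.361 normalized counts (SD, n = 2). Adenosine kinase, Adk, fell by 2.10 and 0.83 (adjusted p = 1.68e-06 and 0.00268). Dpp4, which anchors adenosine deaminase at the surface of lymphocytes, rose by 1.02 in WT (SE 0.11, adjusted p = 3.36e-05) and was 0.23 higher in EBi3KO (adjusted p = 0.125).

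**Figure D3:**
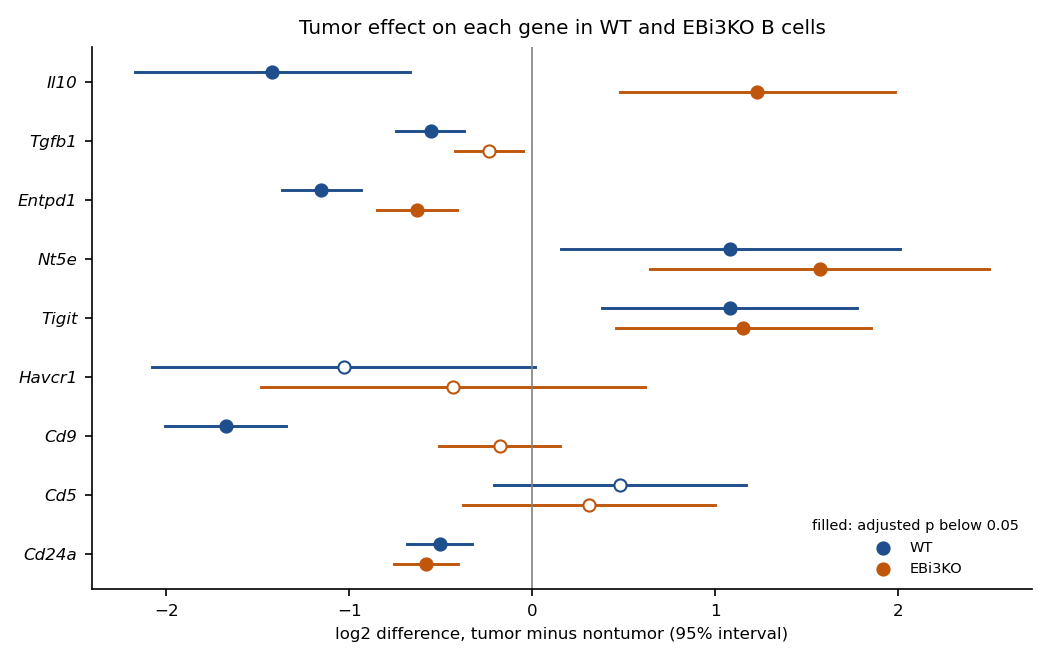
Log2 difference of tumor minus nontumor libraries for each of the 9 genes (horizontal axis) in WT and EBi3KO, with 95% intervals from limma and filled points where the adjusted p was below 0.05. The points for Il10 lie on opposite sides of 0 (-1.42 and 1.23), those for Nt5e, Tigit and Cd24a lie close together, and Cd9 is separated (-1.68 and -0.18).

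Tigit (chr16:43648867-43664146, minus strand) encodes an inhibitory receptor found on T and NK cells and on some regulatory B cells. It was at 20.1 and 17.8 normalized counts in WT nontumor against 34.1 and 49.55 in WT tumor libraries, and 16.6 and 14.01 in EBi3KO nontumor against 31.3 and 39.4 in EBi3KO tumor libraries, from 11 to 63 reads. Every tumor library lay above every nontumor library. The tumor effect was 1.08 (SE 0.306, limma adjusted p = 0.00983) in WT and 1.15 (SE 0.306, adjusted p = 0.0245) in EBi3KO, rises of 2.11-fold and 2.22-fold. The interaction was 0.07 with a 95% interval from -0.91 to 1.06, and the tumor groups differed between genotypes by -0.22 with an interval from -0.92 to 0.48.

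The WT call was lost without WT tumor replicate 2 (0.82, limma adjusted p = 0.0935) and with DESeq2 (adjusted p = 0.0537). The EBi3KO call was lost with the tumor pair averaged (adjusted p = 0.127), with DESeq2 (0.0995) and without EBi3KO nontumor replicate 2 (0.107), EBi3KO tumor replicate 1 (0.0984) or EBi3KO tumor replicate 2 (0.16). Of 11 T cell markers 9 fell and none rose with the tumor in WT, counts of 7 and 2 when scaled to total reads. All 7 NK cell markers fell in WT, or 6 when scaled to total reads. In EBi3KO 1 T cell marker rose and 1 fell, and 1 NK cell marker rose, none of which passed with the tumor pair averaged. The 12 T cell markers summed to 6659 to 7007 normalized counts in WT nontumor against 5496 to 5791 in WT tumor libraries, and 6809 to 6973 in EBi3KO nontumor against 7335 to 7342 in EBi3KO tumor libraries. As a share of reads the sum went the other way in WT, from 0.0223% to 0.024% in nontumor to 0.0257% to 0.0266% in tumor libraries. The part of T and NK cells in the Tigit values was not tested.

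Of the 4 tested genes around TIGIT, Cd96, a nectin receptor of T and NK cells, fell by 1.51 in WT (SE 0.364, limma adjusted p = 0.00427). The ligand Pvr was 0.48 higher in WT (adjusted p = 0.0247) and the nectin Pvrl1 0.67 lower (adjusted p = 0.0329), calls that were lost with DESeq2 (0.0686 and 0.0643). The activating receptor Cd226 did not pass. None of the 4 passed in EBi3KO.

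Havcr1 (chr11:46735080-46779578, plus strand) encodes TIM-1, a marker of IL-10-producing B cells. It was at 149 and 402 normalized counts in WT nontumor against 125 and 114 in WT tumor libraries, and 157 and 354 in EBi3KO nontumor against 170.5 and 179 in EBi3KO tumor libraries. Replicate 2 was 2.7-fold above replicate 1 in WT nontumor and 2.25-fold in EBi3KO nontumor, while the tumor pairs agreed (ratios 0.915 and 1.05). With a tumor the log2 difference was -1.03 (SE 0.46, limma adjusted p = 0.0653) in WT and -0.43 (SE 0.46, adjusted p = 0.485) in EBi3KO, and no comparison passed. In WT it passed in 5 of 19 alternatives, among them edgeR (-1.17, adjusted p = 0.0382) and the fit without WT nontumor replicate 1 (-1.75, adjusted p = 0.00344). Without WT nontumor replicate 2 it was -0.32 and did not pass, so the value depends on which WT nontumor library is kept.

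Of the other 3 TIM family genes, Timd4, a phosphatidylserine receptor of macrophages and some B cells, fell by 3.11 in WT (SE 0.181, limma adjusted p = 1.53e-06) and by 0.94 in EBi3KO (adjusted p = 0.00821, or 0.0694 with the tumor pair averaged). Its means were 415.5 ± 21.1, 47.4 ± 5.91, 451 ± 115 and 231 ± 0.929 normalized counts in WT nontumor, WT tumor, EBi3KO nontumor and EBi3KO tumor libraries (SD, n = 2). Havcr2, the inhibitory receptor TIM-3, fell by 2.15 in WT (adjusted p = 6.94e-06) and was 0.18 lower in EBi3KO (adjusted p = 0.442). Timd2 passed in neither genotype. The macrophage markers moved with these falls and their part was not tested.

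Cd9 (chr6:125460266-125494791, minus strand) marks IL-10-competent B cells as well as marginal zone and B-1 cells. It was at 2592 and 3461 normalized counts in WT nontumor against 1039 and 845 in WT tumor libraries, and 2508 and 2802 in EBi3KO nontumor against 2416 and 2269.5 in EBi3KO tumor libraries. The WT tumor libraries were far below the other 6, which lay between 2269.5 and 3461. The log2 difference with the tumor was -1.68 (SE 0.145, limma adjusted p = 1.01e-05) in WT, a 3.2-fold fall, and -0.18 (adjusted p = 0.357) in EBi3KO, with a 95% interval from -0.51 to 0.15. EBi3KO exceeded WT by 1.32 in tumor mice (SE 0.145, adjusted p = 0.000129) and the interaction was 1.497 (SE 0.206, adjusted p = 0.000712).

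These Cd9 calls held in every alternative run. Platelets and megakaryocytes are rich in CD9, and their 7 markers summed to 4355 to 7264 normalized counts in WT nontumor against 2011 to 2270 in WT tumor libraries, and 3694 to 4237 in EBi3KO nontumor against 3937 to 3953 in EBi3KO tumor libraries. The integrin chain Itga2b averaged 1543 ± 628, 393 ± 68, 1034 ± 91.4 and 970 ± 24.1 (SD, n = 2), an order of groups like that of Cd9. Not all platelet markers had that order. Itgb3 averaged 890.6, 951.5, 737.3 and 852.5, highest in WT tumor libraries. Ppbp averaged 1151 in EBi3KO tumor against 1049 in EBi3KO nontumor libraries. The part of platelets in the Cd9 values was not tested. Cd9 overlaps the antisense genes Gm28809 and Gm26728 on the other strand, and the labels do not say whether the counting used strand.

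Of 14 tested tetraspanins and partners, 1 rose and 11 fell with the tumor in WT, and none rose and 9 fell in EBi3KO. Scaled to total reads the counts were 5 and 8 in WT and 1 and 3 in EBi3KO. With the EBi3KO tumor pair averaged 2 fell, Cd82 and Cd81. Cd82 fell by 1.80 (SE 0.09, limma adjusted p = 7.99e-07) in WT and 0.68 (adjusted p = 0.00147) in EBi3KO, and Cd81, a tetraspanin of lymphocytes, by 1.30 and 0.58 (adjusted p = 2.85e-06 and 0.00258). The lysosomal tetraspanin Cd63 fell by 3.46 in WT (SE 0.257, adjusted p = 4.7e-06) and exceeded WT by 3.10 in EBi3KO tumor libraries (adjusted p = 4.04e-05). Tspan3 fell by 2.01 in WT and by 0.37 in EBi3KO (adjusted p = 1.12e-06 and 0.0342, the latter 0.162 with the pair averaged).

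Cd24a (chr10:43578284-43584265, plus strand) was the most abundant of the 9 genes. It encodes a glycosylphosphatidylinositol-anchored protein that is high on immature and transitional B cells and is also found on erythroid cells. It was at 27582 and 27242 normalized counts in WT nontumor against 20234 and 18419 in WT tumor libraries, and 29506 and 28645 in EBi3KO nontumor against 19756 and 19102 in EBi3KO tumor libraries. Tumor and nontumor libraries did not overlap, and the tumor pairs of the genotypes lay in the same range. The tumor effect was -0.51 (SE 0.078, limma adjusted p = 0.000295) in WT and -0.58 (SE 0.078, adjusted p = 0.00153) in EBi3KO. The interaction was -0.08 with a 95% interval from -0.33 to 0.17, and the tumor groups differed by 0.01 (95% interval from -0.17 to 0.19).

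The fall in EBi3KO passed in every alternative run, while in WT it was -0.05 (adjusted p = 0.493) when scaled to total reads and turned to 0.19 with quantile normalization. The erythroid markers moved in the same way, with 10 of 10 tested markers lower in both genotypes. They summed to 154638 to 164029 normalized counts in WT nontumor against 14930 to 19661 in WT tumor libraries, and 240590 to 360650 in EBi3KO nontumor against 55551 to 56389 in EBi3KO tumor libraries. Their part in the Cd24a fall was not tested. Of the 5 transitional B cell genes, 4 rose and 1 fell in WT and none passed in EBi3KO. With the length and GC trend removed Rag1 and Myb no longer passed in WT (limma adjusted p = 0.179 and 0.0545). Vpreb3, the gene that fell, then turned to 0.3 (adjusted p = 0.0296). Cd93, the marker AA4.1, rose by 2.33 in WT (SE 0.116, adjusted p = 7.69e-07), from 188 ± 25.2 to 943.5 ± 17.1 normalized counts (SD, n = 2), and Sox4 by 2.04, while Cd24a fell.

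Cd5 (chr19:10717116-10739002, minus strand) encodes a scavenger receptor family protein that lowers antigen receptor signalling and marks B-1a cells and IL-10-competent B cells. It was at 41.4 and 26.1 normalized counts in WT nontumor against 44.5 and 48.0 in WT tumor libraries, and 42.2 and 28.02 in EBi3KO nontumor against 41.8 and 44.0 in EBi3KO tumor libraries, from 19 to 61 reads. The nontumor pairs were split in both genotypes, and their higher libraries lay close to the tumor libraries. The tumor effect was 0.48 (SE 0.302, limma adjusted p = 0.172, 95% interval from -0.21 to 1.17) in WT and 0.31 (adjusted p = 0.444, interval from -0.38 to 0.998) in EBi3KO. No comparison passed.

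Of 7 partners of CD5 and CD24, 4 rose and 2 fell with the tumor in WT, and 3 rose and 1 fell in EBi3KO, none of which passed with the tumor pair averaged. The ubiquitin ligase Cbl, which is recruited by CD5, rose by 3.23 in WT (SE 0.187, limma adjusted p = 1.5e-06), from 312 ± 97.9 to 2865 ± 344 normalized counts (SD, n = 2), and was at 332 ± 8 and 375 ± 14.5 in the EBi3KO groups. Siglecg, the sialic acid receptor that pairs with CD24, rose by 1.70 in WT and 0.88 in EBi3KO (adjusted p = 7.48e-05 and 0.017). Csnk2b, a subunit of the kinase CK2 that binds CD5, fell by 1.0 in WT and 0.34 in EBi3KO (adjusted p = 2.07e-05 and 0.0311). Among the 8 B-1 cell genes, 3 rose and 1 fell in WT and 1 rose and 1 fell in EBi3KO, and among the 8 marginal zone genes the counts were 3 and 3, and 0 and 4. With the length and GC trend removed the WT counts were 1 and 3 for B-1 and 1 and 5 for marginal zone genes. With the EBi3KO tumor pair averaged no B-1 gene passed and 3 marginal zone genes fell.

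Havcr1 and Cd5 shared a feature that the groups do not explain. In each nontumor pair replicate 2 had the higher Havcr1 and the lower Cd5: the Cd5 ratio of replicate 2 to replicate 1 was 0.63 in WT and 0.664 in EBi3KO. These Cd5 ratios rest on 37 reads in replicate 1 and 19 in replicate 2 in WT, and 33 and 22 in EBi3KO. The part of counting noise in them was not tested. With a mean of 39.47 normalized counts, Cd5 is not among the genes counted next. Of 10940 genes with a mean of at least 50 normalized counts, 9 were at least 2-fold higher and 72 at least 2-fold lower in replicate 2 of both nontumor groups, and 2 differed by that much in opposite directions. Across all 10940 genes, the log2 ratios of replicate 2 to replicate 1 in the 2 nontumor groups correlated at 0.5 (Pearson r). The labels do not link replicate 2 of one genotype to that of the other, and the model has no term for such a link. For both genes and in both genotypes the split was larger than the difference between the tumor and nontumor means, and its source was not tested.

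**Figure D4:**
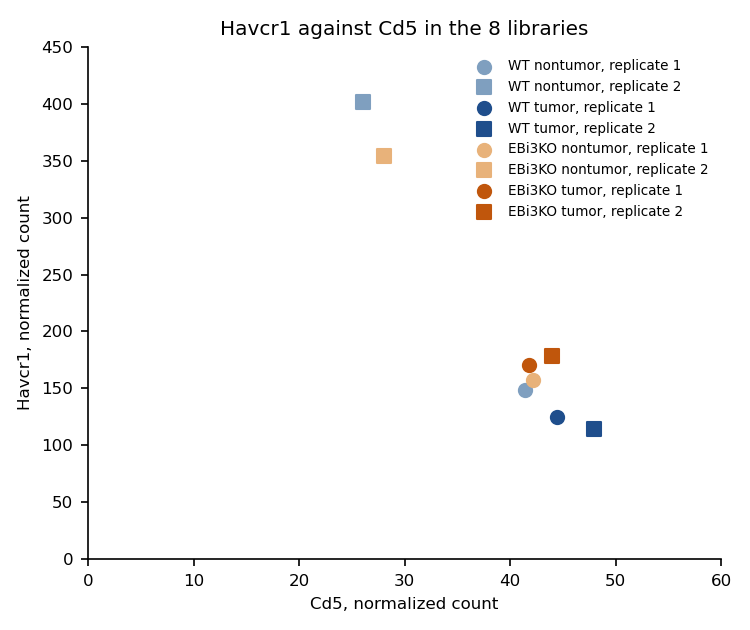
Normalized count of Havcr1 (vertical axis) against Cd5 (horizontal axis), with 1 point per library, color for the group and shape for the replicate. Replicate 2 of each nontumor group lies at the upper left, at Havcr1 counts of 402 and 354 and Cd5 counts of 26.1 and 28.02, apart from the other 6 libraries.

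The genes whose pattern over the 8 libraries was most like that of each of the 9 were found by Pearson r of log2 normalized counts among 10302 or 10303 other genes with a mean of at least 50. The libraries share groups and depth, so r is a description. For Havcr1 they were Gcsam (r = 0.97) and Fas (r = 0.956), whose replicate 2 exceeded replicate 1 by 2.53-fold and 2.28-fold in WT nontumor and 2.39-fold and 1.77-fold in EBi3KO nontumor. For Cd5 they were Tnfaip3 (r = 0.983) and Trp53inp2 (r = 0.978), and the Tnfaip3 ratios were 0.61 and 0.59. For Il10 they were Tk2 (r = 0.975) and Gp49a (r = 0.971). Gp49a was at 26.2 and 29.1 normalized counts in WT tumor and 123.5 and 146.7 in EBi3KO tumor libraries.

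For Cd9 the closest genes were Pttg1 (r = 0.999) and Fam195b (r = 0.998), for Tgfb1 Pfkl and Mrpl55 (r = 0.998 and 0.997) and for Entpd1 Tmx1 and Tusc3 (both r = 0.996). These are common patterns: 2049, 1999 and 1721 genes exceeded r = 0.95 with Cd9, Tgfb1 and Entpd1. Cd24a was closest to Tom1l1 and Slc43a1 (r = 0.993 and 0.992) with 216 genes above 0.95, and Tigit to Qpctl and Alg12 (r = 0.984 and 0.977) with 37. Few genes had the patterns of Il10, Cd5 and Havcr1, with 17, 5 and 3 above 0.95, and none that of Nt5e, for which Chpf2 (r = 0.947) and Siah1a (r = 0.946) came closest. Il10, Tigit, Cd5 and Nt5e rest on 11 to 123 reads per library, and the part of counting noise in these numbers was not tested.

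On the scale of normalized counts per kilobase of transcript, the mean level over the 8 libraries ordered the genes as Cd24a (18609), Tgfb1 (1919), Cd9 (1825), Entpd1 (745), Havcr1 (106), Tigit (30.3), Il10 (19.5), Cd5 (19.1) and Nt5e (17.3). The length used was the median of a gene's annotated coding transcripts. These ran from 473 to 4221 bases for Entpd1, 565 to 2030 for Havcr1 and 825 to 2989 for Cd5. How the order depends on that choice was not tested. The ranges of Tgfb1 and Cd9, of Cd9 and Entpd1, and of each neighbouring pair from Tigit to Nt5e overlapped, so these neighbours were not separated beyond their spread. Within groups, the order changed among the 4 least abundant genes and between Cd9 and Tgfb1. Il10 was the lowest of the 9 in WT tumor libraries (6.6 to 6.67 per kilobase, below Cd5 at 21.5 to 23.2) and seventh in EBi3KO tumor libraries (30.5 to 43.4, above Nt5e at 22.9 to 28.2). Cd9 was level with Tgfb1 in 3 groups and below it in WT tumor libraries (688 to 846 against 1363 to 1533).

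Other regulatory molecules of B cells, among them the targeted gene Ebi3, were counted beside the 9 genes. Ebi3 counts among those that rose in WT and among those lower in EBi3KO tumor libraries. The deletion itself fixes its direction in the latter comparison. Of 16 tested, 7 rose and 4 fell with the tumor in WT, 3 rose and 2 fell in EBi3KO, and 7 were higher and 4 lower in EBi3KO than WT tumor libraries, where the shares of all tested genes that passed were 79.8%, 32.6% and 60.5%. With the EBi3KO tumor pair averaged none rose and 1, Lag3, fell in EBi3KO, and 3 were higher and 3 lower between tumor groups. Lag3, an inhibitory receptor of regulatory plasma cells and T cells, fell by 3.33 in WT (SE 0.119, limma adjusted p = 1.73e-07) and 1.19 in EBi3KO (adjusted p = 0.000365), with means of 662 ± 1.34, 64.8 ± 5.15, 740 ± 86.6 and 323.5 ± 1.28 normalized counts in WT nontumor, WT tumor, EBi3KO nontumor and EBi3KO tumor libraries (SD, n = 2). The ligand Cd274 (PD-L1) rose by 1.06 in WT (adjusted p = 6.72e-05), and the costimulatory ligand Cd86 fell by 1.61 and 0.66 (adjusted p = 8.82e-06 and 0.0108). The inhibitory receptor Fcgr2b and Cd200 rose by 0.41 and 0.34 in EBi3KO. With the tumor pair averaged the EBi3KO calls of Cd86, Fcgr2b and Cd200 were lost (adjusted p = 0.0801, 0.0775 and 0.109).

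**Figure D5:**
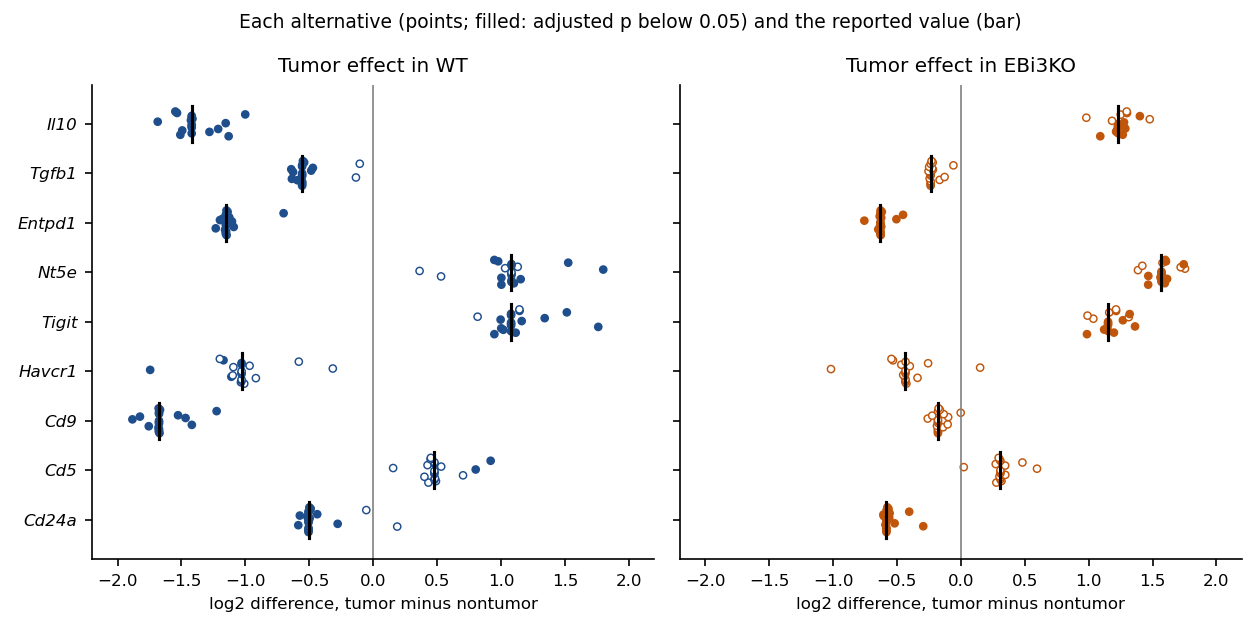
Tumor effect on each of the 9 genes (log2 difference, horizontal axis) in WT (left) and EBi3KO (right) under every alternative run, with 1 point per alternative, filled where the adjusted p was below 0.05, and a bar at the reported value. Points for Cd9 and Entpd1 in WT are all filled and left of 0, while Nt5e and Tigit have open points in both panels.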

How the data were processed

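Per the submitters' processing notes, reads were handled with Salmon and DESeq2 and mm10 is the build named; their versions and settings are not stated in the labels. The labels' protocols give an RNeasy Plus Mini extraction and TruSeq Stranded mRNA libraries, sequenced paired-end. The deposited values are normalized counts (signal), 1 value per gene symbol and library. Of the 23302 rows, 5065 were at 0 in every library and 4 had repeated names. Dividing each library by the value of 1 read gave whole reads for 100% of values within 0.01.

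The 13011 genes averaging 10 or more normalized counts were analysed as log2(normalized count + 1). The model was limma 3.58.1 (R 4.3.3) on all 8 libraries with 1 mean per group and a trended prior variance (4 residual and 4.64 prior degrees of freedom). Tests are two-sided, with Benjamini-Hochberg adjustment across the tested genes of a comparison and a threshold of 0.05. A log2 difference understates the change of low genes. The alternatives included 2 count models of the recovered reads, edgeR 4.0.16 and DESeq2 1.42.0, which called 10435 and 9687 genes for the tumor effect in WT, against 10378. The limma fit was tested on simulated data.

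The 9 genes and all lists were chosen with earlier results of these data known. One gene of the B cell marker list is not reported here. Of each pathway list, at most 4 genes with the smallest p in a comparison are named. Older symbols were matched through a gene name table (Pvrl1 is Nectin1, Igj is Jchain). Promoters are RefSeq entries of GRCm38.p6, found for 7 of the 9 genes and not for Il10 and Cd24a. Only the WT groups share title numbers, and nothing in the labels says that a number marks a shared mouse, litter or day.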

Additional observations from a re-analysis of the deposited data

Results flagged for a closer look

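The tumor effects in EBi3KO and WT differed by the test of the difference itself for 4 of the 9 genes, each higher in EBi3KO relative to WT: Il10 by 2.65 on the log2 scale (limma adjusted p = 0.00201), Cd9 by 1.497 (adjusted p = 0.000712), Entpd1 by 0.523 (adjusted p = 0.0113) and Tgfb1 by 0.32 (adjusted p = 0.0433). For Il10 the tumor effects had opposite directions, -1.42 in WT and 1.23 in EBi3KO, and the EBi3KO rise did not pass in every alternative. The 4 values involve the WT tumor libraries, whose sex and title prefix cannot be told apart from the tumor in WT. Of all tested genes, 52.9% passed the same test. Groups of 2 libraries are too small for a check of single libraries that lie far from the others.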

How the results depend on the processing

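For each comparison of the 9 genes 17 to 21 alternatives were run. The number called of the 9 was within 1.5 times the reported number in all of them, except for the tumor effect in EBi3KO. There 5 were called, against 3 with a mean of at least 50 (where Il10, Cd5 and Tigit are not tested), 3 with DESeq2, 2 with the tumor pair averaged, and 2 to 4 when 1 library was left out. Genes called there numbered 4242, against 2375 without a trend in the prior variance, 733 with the pair averaged and 756 to 4827 when 1 library was left out. The genotype effect in nontumor mice called 0 genes, against 1 with the length and GC trend removed, 21 with DESeq2 and 0 to 5 when 1 library was left out.

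With quantile normalization the direction of Cd24a turned in WT, to 0.188, and in the genotype effect in tumor mice, to -0.38 (limma adjusted p = 0.00321). The median of all genes shifted by more than 0.1 when libraries were scaled to total reads, an alternative chosen after seeing the data, to 0.459 in WT, 0.169 in EBi3KO, -0.19 between tumor groups and -0.285 in the interaction. The split into higher and lower genes was then 7023 to 3525 in WT (5157 to 5221 as reported), 3815 to 1358 in EBi3KO (1841 to 2401), 3111 to 5084 between tumor groups (4151 to 3715) and 2455 to 4917 in the interaction (3579 to 3302). Under it Cd5 in WT passed (0.919, adjusted p = 0.0248) and so did Cd24a in the interaction (-0.35, adjusted p = 0.0178). Differences also followed transcript length, with a Spearman rho of 0.358 across genes for the tumor effect in WT. With that trend removed Tgfb1 between tumor groups was 0.004. The causes of these changes were not tested.

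A replicate block by title number was possible in WT only and called 8 of the 9 genes, Havcr1 added (adjusted p = 0.00146), and 9305 genes. The deviations of same-numbered libraries correlated at -0.256 across genes, so the crossed pairing was added: it called 8 of the 9 and 10678 genes. The lowest levels, those of Il10, Tigit, Cd5 and Nt5e, rest on 11 to 123 reads per library, which limits their precision.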
